A study of Mus musculus with 13 samples.

Results

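The p38 and ERK family kinases are the mitogen-activated protein (MAP) kinases that work beside the c-Jun N-terminal kinases (JNK). The members examined were chosen as a gene family by name, with earlier results of these data known. They were Mapk3, Mapk4, Mapk6, Mapk7, Mapk11, Mapk12, Mapk13 and Mapk14, 8 of the 23845 genes in the deposited tables. Their transcripts were compared between 7 JNK knockout and 6 wild-type (WT) lines grown from primary mammary tumours, to ask whether other MAP kinases were raised where JNK had been removed. Both groups were of the mouse strain FVBN/J, and both were kept in medium with serum, EGF and insulin. The study is titled as one of HER2-driven breast cancer. The labels give no transgene, Cre driver, age, passage number or batch, and do not say which JNK genes were removed. Each sample was a separate line, and where lines came from the same animal the p-values measure only the spread between lines. The titles of WT replicates 4 and 5 share a number.

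MAP kinases are the last step of a chain in which one kinase phosphorylates the next. ERK1, the product of Mapk3, is switched on by MEK1 and MEK2 downstream of receptors such as HER2 and the EGF receptor, and drives proliferation. The p38 kinases (p38 alpha from Mapk14, beta from Mapk11, gamma from Mapk12 and delta from Mapk13) are switched on by MKK3 and MKK6 in response to stress and cytokines, partly by the same upstream kinases as JNK. ERK5 (Mapk7) has its own activator, MEK5, and ERK3 (Mapk6) and ERK4 (Mapk4) are atypical members that bind the kinase MK5.

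What the members share, and where they part, can be read in the coding sequence of the activation segment, the loop that is phosphorylated when the kinase is switched on. It is shown here because it defines the subfamilies that the results are ordered by. The sequences are from GENCODE M21 on GRCm38, from the codons of the DFG motif to those of the APE motif (SPR in ERK3), with the 3 codons of the phosphorylation motif in capitals.
Mapk3 (chr7:126763404-126763496, plus strand, exon 4): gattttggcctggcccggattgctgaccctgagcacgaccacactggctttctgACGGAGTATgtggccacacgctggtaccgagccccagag
Mapk7 (chr11:61491392-61491487, minus strand, exon 4): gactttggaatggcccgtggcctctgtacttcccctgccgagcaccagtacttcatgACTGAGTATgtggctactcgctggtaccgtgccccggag
Mapk6 (chr9:75395607-75397623, minus strand, exons 2 and 3): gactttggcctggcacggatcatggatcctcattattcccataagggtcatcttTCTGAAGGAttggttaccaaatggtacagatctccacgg
Mapk14 (chr17:28728363-28728437, plus strand, exon 7): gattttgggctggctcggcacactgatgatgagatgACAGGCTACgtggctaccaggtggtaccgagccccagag
Mapk11 (chr15:89145836-89145910, minus strand, exon 7): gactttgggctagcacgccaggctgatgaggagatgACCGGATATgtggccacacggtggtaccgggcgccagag
Mapk12 (chr15:89134646-89134720, minus strand, exon 7): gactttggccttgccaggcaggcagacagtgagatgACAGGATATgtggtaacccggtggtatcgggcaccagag
Mapk13 (chr17:28776308-28776382, plus strand, exon 7): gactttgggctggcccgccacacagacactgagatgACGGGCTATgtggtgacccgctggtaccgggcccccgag
The capitals encode threonine, glutamate and tyrosine in ERK1 and ERK5, threonine, glycine and tyrosine in the p38 kinases, and serine, glutamate and glycine in ERK3, which has 1 site to phosphorylate in place of a pair. The p38 segments were all 75 bases long and were identical at 74.7% of bases between Mapk12 and Mapk14 and at up to 81.3% between Mapk12 and Mapk13. Across the transcripts of all 8 members, the longest run of identical bases shared by a pair was between 11 and 26 bases over the 28 pairs, shorter than the 150-base reads.

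The genotype labels were checked on the JNK genes. Mapk8, which encodes JNK1, lay between 0.85 and 2.45 TPM in knockout lines, against 7.72 to 11.9 TPM in WT lines, and Mapk9, which encodes JNK2, between 2.16 and 8.48 TPM in knockout lines, against 20.5 to 29.0 TPM in WT lines. TPM is a level scaled for transcript length, so it can be compared between genes. Both fell, by 2.37 and by 1.63 on the log2 scale in the test described below (adjusted p = 9.1e-05 and 0.00091). For both genes the groups did not overlap in TPM, as for 3.77% of all genes tested in that direction. Mapk10, the JNK3 gene, had 9 reads over all knockout lines and 14 over all WT lines and was not tested. The depth per line was 38298602 to 46689809 expected counts. The luminal epithelial markers (7 genes) summed to 1185 to 4551 TPM in knockout lines, against 6653 to 9067 TPM in WT lines, and the basal markers (6 genes) to 692 to 22160 TPM in knockout lines, against 164 to 424 TPM in WT lines. The fibroblast markers (7 genes) summed to 0.91 to 16.6 TPM in knockout lines, against 4.61 to 109 TPM in WT lines. All 4 endothelial and all 3 adipocyte markers stayed under 1 TPM in every line. Of 5 immune markers 3 did, and the list summed to 3.57 to 18.6 TPM in knockout lines, against 3.80 to 33.4 TPM in WT lines. Knockout replicate 2 stood apart, with the lowest luminal and the highest basal sum of the 13 lines, and WT replicate 3 had the highest fibroblast sum.

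None of the 8 kinases rose in the knockout lines, and 2 fell. Mapk4, the gene of ERK4, dropped to traces, and Mapk14, the gene of p38 alpha, was 24.2% lower. The other 6 did not pass the test. All 8 had enough reads to be tested, Mapk4 through its reads in WT lines alone. The test was edgeR's quasi-likelihood test on counts, fitted across 13058 genes with Benjamini-Hochberg adjustment over all of them and a threshold of 0.05. Across those genes 4.33% were called higher and 4.17% lower in knockout lines, 8.51% in all. The median log2 fold change (knockout minus WT) was 0.0038 over the 8 members and 0.0076 over all genes tested.

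**Figure D1:**
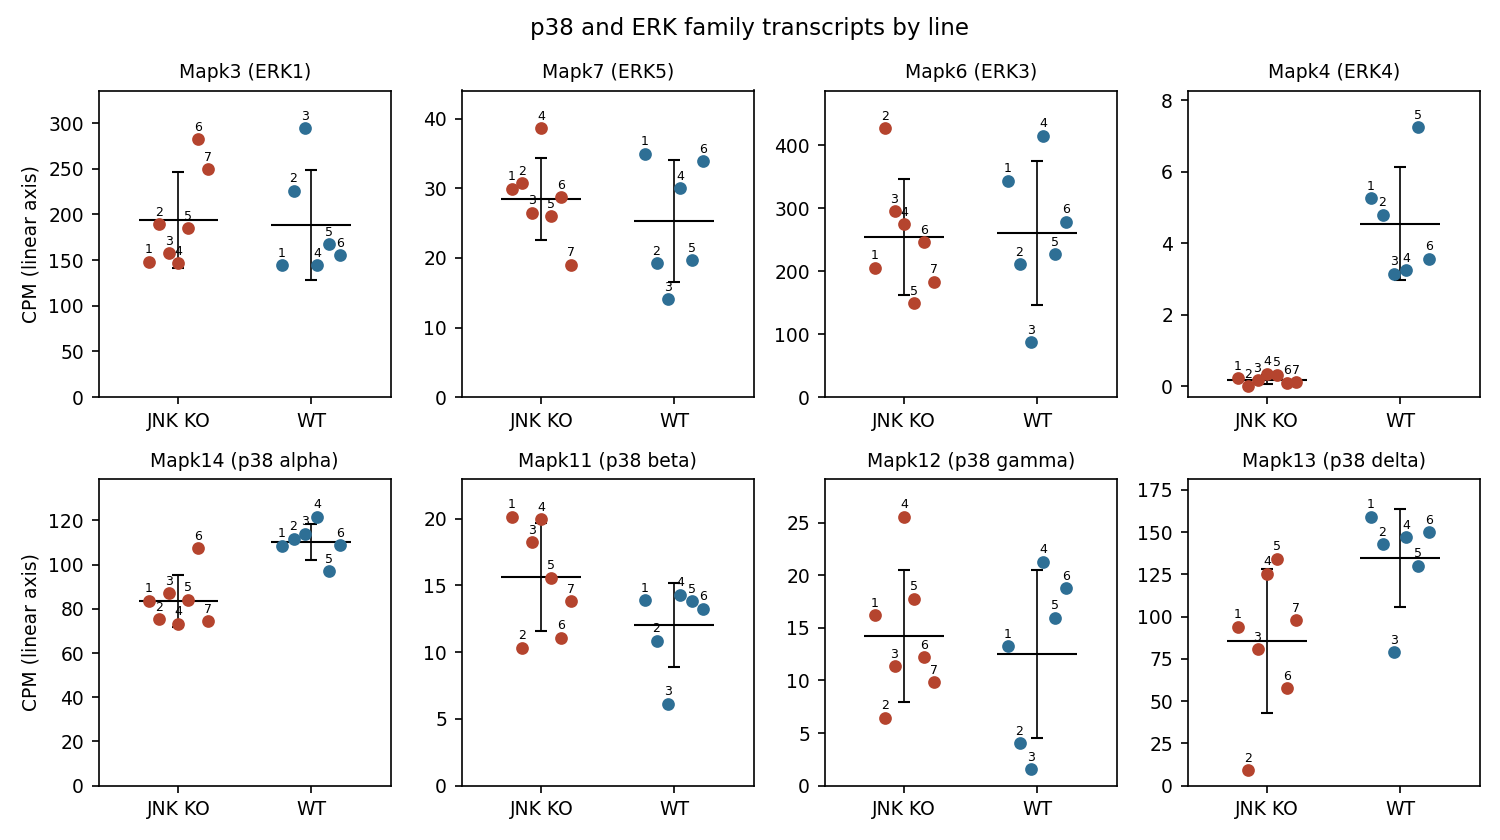
Transcript level of each member in CPM (read counts scaled to library size, linear axis) in the 7 JNK knockout lines (left) and the 6 WT lines (right). Each point is a line, numbered by replicate, and the bar and whiskers are the mean and SD. Mapk4 lies between 0 and 0.356 CPM in knockout lines and at 3.15 CPM or more in each WT line, while the other members overlap.

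By median TPM, Mapk3 was the most abundant of the 4 ERK genes among the members in both groups. Mapk3 (chromosome 7, 126759626 to 126765816) was 147 CPM (reads scaled to library size) at the lowest, 185 at the median and 282 at the highest in knockout lines, against 144, 161 and 294 CPM in WT lines. The groups covered nearly the same range, and the highest value of all was in WT replicate 3. The log2 fold change was 0.04 (SE 0.21, adjusted p = 0.92), with a 95% interval from -0.42 to 0.50, so a rise of more than 1.42-fold lies outside the interval.

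ERK5 is a large kinase whose C-terminal tail can act on transcription. Mapk7 (chromosome 11, 61488812 to 61494267, the chromosome that also holds Mapk9) was 19.0 CPM at the lowest, 28.7 at the median and 38.7 at the highest in knockout lines, against 14.1, 24.8 and 35.0 CPM in WT lines. Its log2 fold change of 0.17 did not pass (SE 0.23, adjusted p = 0.68, 95% interval -0.32 to 0.67).

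Of the atypical kinase genes Mapk4 passed the test and Mapk6 did not. ERK3 is an unstable protein that is regulated largely by its turnover. Mapk6 (chromosome 9, 75386782 to 75410016) was 150 CPM at the lowest, 246 at the median and 427 at the highest in knockout lines, against 87.4, 253 and 415 CPM in WT lines. The groups overlapped almost wholly, with the extremes in knockout replicate 2 (427 CPM) and WT replicate 3 (87.4 CPM), and the log2 fold change was -0.03 (SE 0.32, adjusted p = 0.96, 95% interval -0.71 to 0.65).

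Mapk4 (chromosome 18, 73928486 to 74065434) encodes ERK4, the closest relative of ERK3. It had 9, 0, 7, 14, 12, 5 and 5 reads in knockout replicates 1 to 7, against 223, 205, 117, 148, 356 and 151 reads in WT replicates 1 to 6. The groups did not overlap. The lowest WT line, at 3.15 CPM, was 8.87 times the highest knockout line, at 0.356 CPM. Knockout lines averaged 0.185 ± 0.126 CPM (SD, n = 7), against 4.55 ± 1.58 CPM in WT lines (SD, n = 6). The log2 fold change was -4.61 (SE 0.62, adjusted p = 0.0020), 24.3-fold lower, with a 95% interval from -5.95 to -3.26. The 0 reads in knockout replicate 2 allow a level of up to 0.0786 CPM (3 reads, counting error only). The level was low in WT lines too, at 1.16 to 2.99 TPM, against 0 to 0.13 TPM in knockout lines. CPM of all knockout lines lay below every WT line for 1.97% of all genes tested.

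Markers and neighbours of Mapk4 were set beside this fall. It stood beside lower luminal and higher basal marker sums in the knockout lines, and the part of that shift in the fall was not tested. Of the 7 luminal markers 2 fell and none rose in knockout lines. They were the keratin genes Krt18 (log2 fold change -1.26, adjusted p = 0.0026) and Krt8 (-0.97, adjusted p = 0.047). The groups of Krt18 did not overlap in CPM, as for 1.97% of all genes tested in that direction. Of 6 basal markers 5 rose and none fell. Of all genes tested 4.33% were called higher and 4.17% lower in knockout lines. In these bulk samples, fewer cells with a transcript and less transcript per cell cannot be told apart. The nearest tested genes on the chromosome did not pass the test. Me2, 113.0 kb before Mapk4, differed by 0.31 on the log2 scale (SE 0.30, adjusted p = 0.55), and Ska1, 129.9 kb after it, by -0.09 (SE 0.41, adjusted p = 0.91).

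p38 alpha is the broadly expressed member of its subfamily and carries most of the known p38 functions. Mapk14 (chromosome 17, 28691342 to 28748405) was 73.3 CPM at the lowest, 83.7 at the median and 107 at the highest in knockout lines, against 97.0, 110 and 122 CPM in WT lines. In 6 of 7 knockout lines the level was under that of any WT line, and knockout replicate 6, at 107 CPM, lay above WT replicate 5, at 97.0 CPM. The log2 fold change was -0.40 (SE 0.11, adjusted p = 0.037), 1.32-fold lower, with a 95% interval from -0.63 to -0.17. The call lay close to the threshold. Of 13 fits that each left out 1 line 3 kept it, those without knockout replicate 5, knockout replicate 6 or WT replicate 5, with log2 fold changes from -0.47 to -0.37 and adjusted p from 0.013 to 0.082 over all 13. The call was also lost without knockout replicate 2 and WT replicate 3 together (adjusted p = 0.088), with no filter on low counts (adjusted p = 0.054), and with WT replicates 4 and 5 summed (adjusted p = 0.056). In TPM the groups did not overlap, at 30.4 to 52.7 TPM in knockout lines and 53.0 to 65.8 TPM in WT lines. The same held for 3.77% of all genes in that direction and 0.934% in the other. Levels in TPM were shifted down in knockout lines over all genes, by a median of -0.19 on log2(TPM + 1). Its nearest tested neighbours, Srpk1 at 68.8 kb (log2 fold change 0.03, adjusted p = 0.92) and Mapk13, did not pass.

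Mapk14 was also one of the steadiest genes in these lines. Its log2 CPM had an SD of 0.19 over knockout lines and 0.11 over WT lines, and only 0.950% of all genes tested had a biological coefficient of variation at or below its value of 0.185. That of Mapk13 was 0.520 and that of Mapk12 0.636.

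**Figure D2:**
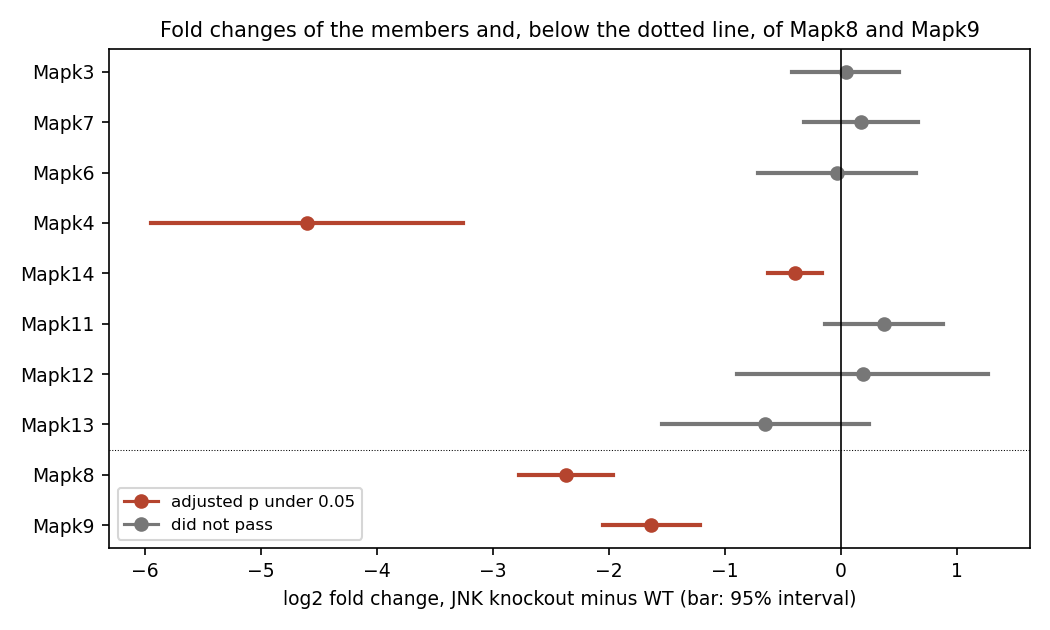
Log2 fold change, JNK knockout minus WT, of the 8 members and of Mapk8 and Mapk9, with 95% intervals as bars. Red marks an adjusted p under 0.05. Of the members Mapk4 and Mapk14 pass, both below 0, and the intervals of the others include 0.

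p38 beta is the closest relative of p38 alpha. Mapk11 (chromosome 15, 89142482 to 89149606) was 10.3 CPM at the lowest, 15.6 at the median and 20.2 at the highest in knockout lines, against 6.14, 13.5 and 14.3 CPM in WT lines. Of the 7 knockout lines 4 lay above every WT line. This was the largest positive fold change of the 8, but it did not pass (log2 fold change 0.37, SE 0.24, adjusted p = 0.34, 95% interval -0.14 to 0.88).

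p38 gamma is best known from skeletal muscle. Mapk12 (chromosome 15, 89130584 to 89141577) was 6.47 CPM at the lowest, 12.2 at the median and 25.6 at the highest in knockout lines, against 1.59, 14.6 and 21.3 CPM in WT lines. The WT lines alone covered a 13.4-fold range, with WT replicate 3 at 1.59 CPM and WT replicate 2 at 4.05 CPM far below the others. The log2 fold change was 0.19 (SE 0.50, adjusted p = 0.85), and its interval from -0.90 to 1.27 leaves room for a large difference in either direction. Mapk11 and Mapk12 lie next to each other, 904 bases apart with no annotated gene between. After the group means were subtracted their log2 CPM had a Pearson correlation of 0.85 over the 13 lines, and 0.60 without knockout replicate 2 and WT replicate 3. The other neighbouring members, Mapk13 and Mapk14, had a correlation of 0.06, and -0.50 without those lines. Mapk4 and Mapk13, on different chromosomes, had one of 0.88, and 0.62 without those lines. These points share their libraries, and the values are a description.

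p38 delta is made mainly in epithelia, among them the epidermis. Mapk13 (chromosome 17, 28769286 to 28778704) was 9.17 CPM at the lowest, 94.1 at the median and 134 at the highest in knockout lines, against 79.0, 145 and 159 CPM in WT lines. Knockout replicate 2 was the lowest by far, and the lowest WT line, replicate 3, lay within the knockout range. The log2 fold change of -0.65 did not pass (SE 0.41, adjusted p = 0.34, 95% interval -1.55 to 0.24). Without knockout replicate 2 it was -0.45 (adjusted p = 0.20), and without both lines -0.57 (adjusted p = 0.086), so a lower level in knockout lines was not established at this spread.

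Knockout replicate 2 was also low in epithelial adhesion genes. It held 40.8 CPM of Epcam, where no other knockout line was under 266 CPM, and 92.3 CPM of the E-cadherin gene Cdh1, where none was under 311 CPM. It held 4042 CPM of the mesenchymal filament gene Vim, where no other was over 704 CPM. Their part in the level of Mapk13 was not tested. Beside its low Mapk13, WT replicate 3 was the lowest WT line in Cdh1 (595 CPM) and in the claudin genes Cldn3 and Cldn4 (84.3 CPM for Cldn4), and the highest in Epcam (1407 CPM).

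Mapk13 lies 20.9 kb from Mapk14, and the promoters of both are shown as a description. The sequences are from RefSeq (GRCm38.p6), 250 bases before to 50 after an annotated start, and capitals mark the GC box. For Mapk13 that start lies further in than the gene start given above. Windows of 6 of the 8 members were read. Mapk14 has another annotated start further in, whose window held no GC box.
Mapk14 (chr17:28691092-28691391, plus strand): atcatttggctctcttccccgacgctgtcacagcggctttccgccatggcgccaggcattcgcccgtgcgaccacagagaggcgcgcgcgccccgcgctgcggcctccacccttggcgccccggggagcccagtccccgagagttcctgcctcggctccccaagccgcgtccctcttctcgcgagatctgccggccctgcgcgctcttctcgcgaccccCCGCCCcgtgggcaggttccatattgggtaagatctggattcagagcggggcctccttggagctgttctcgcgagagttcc
Mapk13 (chr17:28769067-28769366, plus strand): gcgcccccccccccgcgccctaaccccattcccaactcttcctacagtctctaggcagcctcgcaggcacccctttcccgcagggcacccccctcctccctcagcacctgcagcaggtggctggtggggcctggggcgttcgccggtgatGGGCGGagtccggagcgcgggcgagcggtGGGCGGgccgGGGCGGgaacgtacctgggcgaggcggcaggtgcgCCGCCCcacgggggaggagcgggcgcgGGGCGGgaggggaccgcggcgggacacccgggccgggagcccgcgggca
The GC box (GGGCGG, either strand) occurred 5 times in the Mapk13 window and once in that of Mapk14, and 35.7% of 32851 RefSeq promoter windows held at least 1. The AP-1 motif TGANTCA, bound by JUN and FOS proteins, was in neither window (7.81% of all), nor was the CRE motif TGACGTCA (1.79%) or the TATA motif TATAAA (13.6%), each searched on both strands. G and C made up 78.0% of the Mapk13 and 68.7% of the Mapk14 window, against a median of 52.7% over all windows. Of the other p38 genes, Mapk12 had 1 GC box in its window and a biological coefficient of variation of 0.636. Mapk11 had 4 GC boxes and a coefficient of 0.353. A link between promoter sequence and the spread over lines was not tested.

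Taken as a subfamily, the p38 transcripts were dominated by Mapk13. It made up 52.6% to 71.6% of the summed p38 TPM in 6 of the 7 knockout lines, against 63.6% to 74.8% in WT lines, and 20.1% in knockout replicate 2, where Mapk14 led with 58.1%. The sum itself was 58.9 TPM at the lowest, 179 at the median and 253 at the highest in knockout lines, against 172, 295 and 337 TPM in WT lines. All knockout lines lay below 5 of the 6 WT lines, and WT replicate 3, at 172 TPM, lay among them. Levels in TPM carry a shift of all genes, whose median difference on log2(TPM + 1) was -0.19 (knockout minus WT). With TPM rescaled by TMM factors the medians were 189 TPM in knockout and 277 TPM in WT lines. The share of Mapk11 did not overlap, at 4.36% to 11.9% in knockout lines and 2.60% to 3.99% in WT lines. The shares of Mapk12, Mapk13 and Mapk14 did overlap. No background over all genes was computed for such shares, and most of the sum was Mapk13 in all lines but knockout replicate 2. The non-overlap is thus not a result about Mapk11 by itself, which did not pass edgeR's test (adjusted p = 0.34). Its level in TPM did overlap, at 7.01 to 14.8 TPM in knockout lines and 4.47 to 11.6 TPM in WT lines. The Mapk11 median was 9.36 TPM in knockout and 10.6 TPM in WT lines, while the mean was 10.6 TPM in knockout and 9.56 TPM in WT lines. In CPM the Mapk11 median was 15.6 in knockout and 13.5 in WT lines. What part the sum and the level of Mapk11 had in the higher share was not tested. No test is given for sums and shares, since the genes were chosen with earlier results known.

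**Figure D3:**
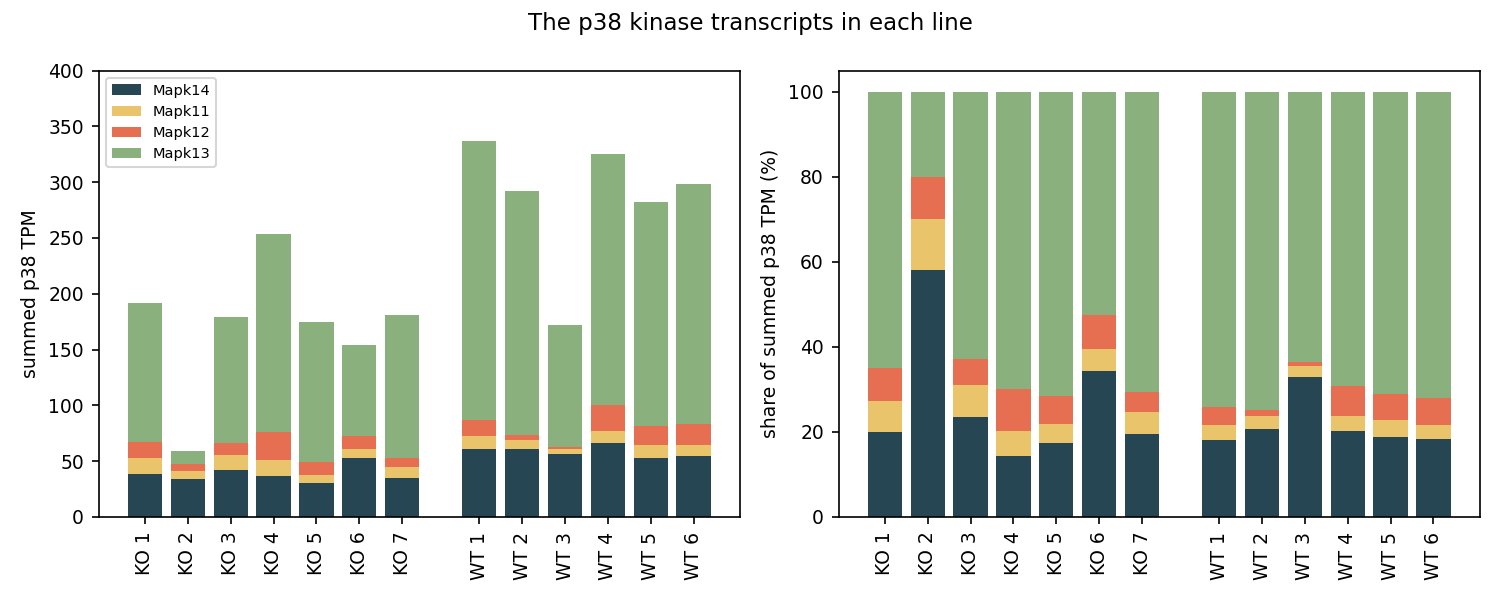
Summed TPM of the 4 p38 genes in each line (left panel) and the share of each gene in that sum in percent (right panel), with knockout lines left of WT lines. The knockout sums lie between 58.9 and 253 TPM and the WT sums between 172 and 337 TPM, and knockout replicate 2 has the smallest Mapk13 share, 20.1%.

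By median TPM the order of the levels was Mapk3 (164), Mapk13 (125), Mapk6 (101), Mapk14 (36.3), Mapk7 (16.3), Mapk12 (11.5), Mapk11 (9.36) and Mapk4 (0.06) in knockout lines. In WT lines Mapk13 (217) came before Mapk3 (182), followed by Mapk6 (110), Mapk14 (58.5), Mapk12 (15.9), Mapk7 (15.9), Mapk11 (10.6) and Mapk4 (1.64). Some neighbours in these orders could not be separated. Mapk13 exceeded Mapk6 in 4 of 7 knockout lines, Mapk12 exceeded Mapk11 in 4 of 7 knockout lines, Mapk13 exceeded Mapk3 in 4 of 6 WT lines and Mapk12 exceeded Mapk7 in 2 of 6 WT lines. Mapk14 exceeded the next gene, and Mapk11 exceeded Mapk4, in all lines of both groups.

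The genes most like each member across the lines were found from log2 CPM after the group means were subtracted, by Pearson correlation over the 13 lines among 10651 genes with a mean of at least 5 CPM. The points share their libraries and depth, base composition was not examined, and the values are a description. For Mapk13 they were Tmem54 (0.96, Spearman 0.89) and the keratin gene Krt7 (0.96, Spearman 0.82), values that were 0.70 for both without knockout replicate 2 and WT replicate 3. For Mapk14 the helicase gene Dhx16 (0.80, Spearman 0.69) was among them. Mapk3 was followed by Atg9a (0.96) and Gm14325 (0.94), Mapk6 by Fam126a (0.96) and Rab31 (0.94), and Mapk7 by Ttl (0.96) and Cnnm4 (0.94). Mapk11 was followed by Gvin1 (0.96) and Gchfr (0.95), and Mapk12 by Gchfr (0.95) and Zdhhc12 (0.94). Mapk4 had too low a mean for this.

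Among the members the pair with the most opposed pattern was Mapk3 and Mapk11, with a Pearson correlation of -0.87 (Spearman -0.94) and -0.97 without the lines above. Mapk6 and Mapk7 had one of 0.76 (Spearman 0.75), and 0.67 without the lines above.

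The upstream kinases examined were those of the lists that follow. Of all genes tested 8.51% were called in either direction. Of the ERK cascade kinases 6 of 8 were tested, none was called, and the median log2 fold change was -0.01. The smallest p-values were those of Map2k2, which encodes MEK2 (174 ± 22.1 CPM in knockout lines and 133 ± 21.6 CPM in WT lines, a log2 difference of 0.39, SE 0.13, adjusted p = 0.074), and Ksr1, a scaffold of the cascade (log2 fold change -0.88, SE 0.41, adjusted p = 0.19). DESeq2 called Map2k2 (adjusted p = 0.034). Of the p38 activators all 4 were tested and none was called (median 0.06). Map2k6, the gene of MKK6, was 0.811 to 2.96 CPM in knockout lines, against 0.685 to 11.5 CPM in WT lines (log2 fold change -1.41, SE 0.58, adjusted p = 0.14). Map2k4, whose product also activates JNK, differed by 0.20 on the log2 scale (SE 0.12, adjusted p = 0.34), and was called with limma-voom sample weights (0.34, adjusted p = 0.023). Of the ERK5 activators and targets 7 of 8 were tested and none was called (median 0.02). Nearest to the threshold were Klf4, an ERK5-responsive transcription factor gene (log2 fold change 1.29, SE 0.58, adjusted p = 0.18), and Map3k2, which encodes MEKK2 upstream of MEK5 (-0.38, SE 0.18, adjusted p = 0.19).

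Among the kinases that MAP kinases activate, 1 of 11 rose and none fell (median 0.20), where 4.33% of all genes tested were called higher. The called gene is described as a single gene and not as a result about the list. It was Mknk1, which encodes MNK1, a kinase of the translation factor eIF4E that both ERK and p38 activate. Mknk1 was 12.7 CPM at the lowest, 20.4 at the median and 26.4 at the highest in knockout lines, against 6.74, 9.07 and 11.7 CPM in WT lines. All knockout lines lay above every WT line in CPM, as for 2.08% of all genes, and the log2 fold change was 1.03 (SE 0.24, adjusted p = 0.020). In TPM, where all knockout lines lay above every WT line for 0.934% of all genes, the groups of Mknk1 overlapped, and on log2(TPM + 1) the difference was 0.69 and did not pass (adjusted p = 0.082). Mapkapk5, the gene of MK5, the partner of ERK3 and ERK4, did not pass (39.4 ± 6.34 CPM in knockout lines and 34.2 ± 6.84 CPM in WT lines, log2 fold change 0.20, SE 0.16, adjusted p = 0.43). It was named after its values were seen.

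Of the scaffolds and anchors 8 of 9 were tested, none rose and 1 fell (median -0.18), where 4.17% of all genes tested were called lower. Pea15a encodes PEA-15, a small protein that binds ERK and keeps it in the cytoplasm. It was 61.4 CPM at the lowest, 115 at the median and 137 at the highest in knockout lines, against 176, 225 and 379 CPM in WT lines. The groups did not overlap in CPM or TPM, as for 1.97% and 3.77% of all genes tested in that direction. The log2 fold change was -1.14 (SE 0.21, adjusted p = 0.0080), and the call held in all 13 fits that left out 1 line.

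For the lists in this paragraph, the shares of all genes tested were 4.33% called higher and 4.17% called lower. Of the MAP kinase phosphatases 9 of 13 were tested, none rose and 2 fell (median -1.28). They were Dusp16 (log2 fold change -2.07, SE 0.31) and Dusp8 (-2.76, SE 0.43), whose products remove the activating phosphates of JNK and p38 (adjusted p = 0.0030 and 0.0031). Of 16 ERK output genes 1 rose and 3 fell (median -0.41). Myc rose (log2 fold change 0.70), while Ier3 (-1.47), the feedback inhibitor gene Spry4 (-4.54) and Etv5 (-1.97) fell (adjusted p = 0.010, 0.0068, 0.0083 and 0.043). On log2(TPM + 1) the difference of Myc was 0.48 and did not pass (adjusted p = 0.053). Etv5 passed in 3 of 13 leave-one-out fits. Without WT replicate 3 the log2 fold change of Etv5 was -0.85 (adjusted p = 0.053) and that of Spry4 was -3.41 and still passed. Of the genes regulated by p38 and its substrate kinase MK2, 6 of 8 were tested and none was called (median -0.46). Among them Hspb1, which encodes a heat shock protein phosphorylated by MK2, differed by -0.84 on the log2 scale (SE 0.46, adjusted p = 0.26) and the chemokine gene Cxcl1 by 0.72 (SE 0.58, adjusted p = 0.46). With the SE as large as this, sizeable changes of these genes would not have been detected.

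**Figure D4:**
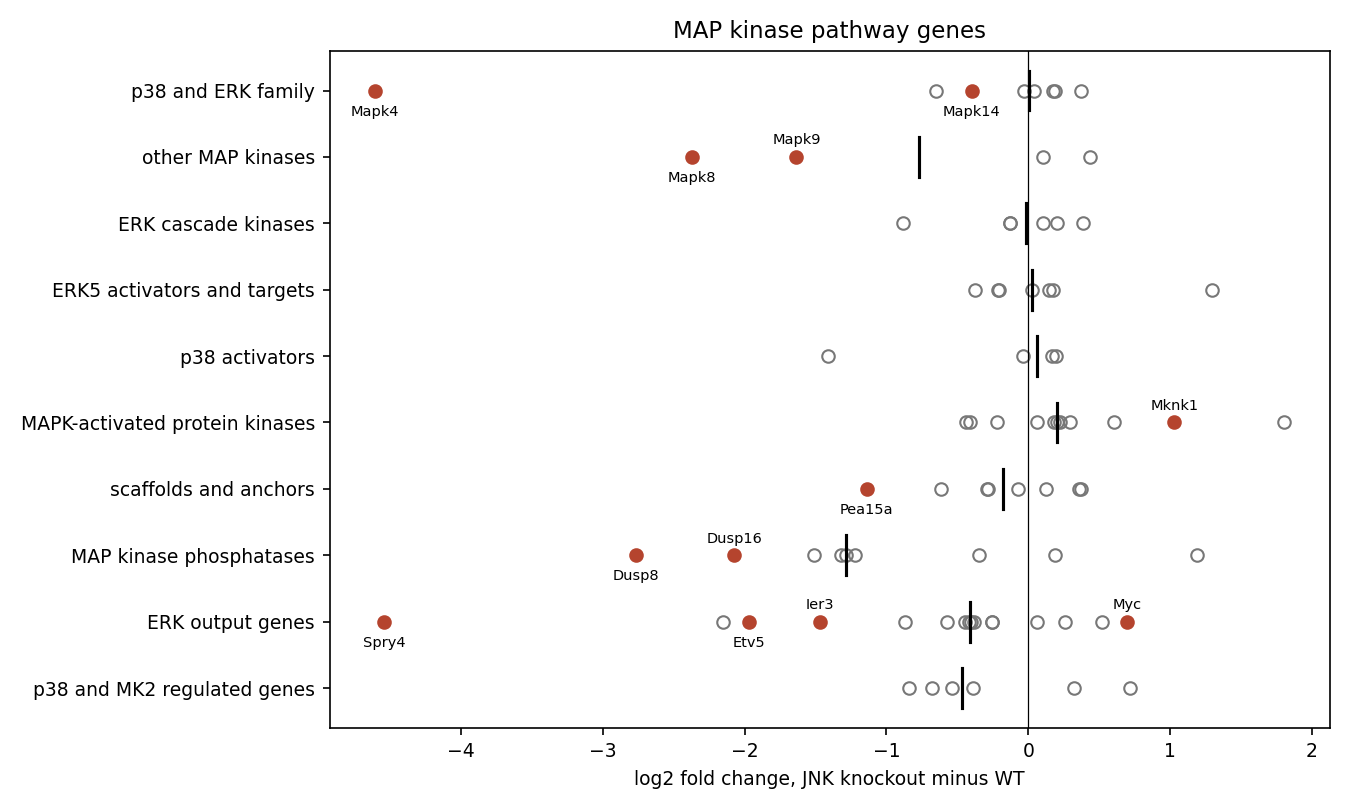
Log2 fold change, JNK knockout minus WT, of each tested gene in the p38 and ERK family and in 9 lists of related genes. Filled red points passed the test and carry their names, open points did not, and the vertical bars are list medians. Mapk4 at -4.61 and Spry4 at -4.54 lie farthest from 0, and Mknk1 and Myc are the called genes above 0.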

How the data were processed

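RNA-seq values of 13 lines, 7 JNK knockout and 6 WT, were used. The authors deposited expected counts per gene, and TPM for the same genes were deposited alongside. The submitters' processing notes name cutadapt, RSEM and the builds mm10 and GRCm38, with no order. The aligner, annotation release, versions and strand use were not stated in the sources used. Expected counts were rounded to whole numbers, filtered with filterByExpr (13058 of 23845 genes kept), scaled by TMM and tested with edgeR 4.0.16 in R 4.3.3 with the group as the only term, after a check on simulated counts. Limma 3.58.1 and DESeq2 1.42.0 served as alternatives. The SE was taken as the size of the log2 fold change over √F, which makes the 95% intervals approximate. CPM is per TMM-scaled library. The members and lists were chosen with earlier results of these data known. Named genes were the members, the JNK genes, up to 4 called genes of each list by adjusted p (or the 2 with the smallest p), the 2 most correlated genes of each member and the nearest tested neighbours of called members. Some genes that this rule or the lists name are not reported here. Gene positions are from RefSeq GRCm38.p6. Alternatives were other scalings, tools, filters, TPM scales and thresholds, lines left out, and WT replicates 4 and 5 summed.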

Additional observations from a re-analysis of the deposited data

Results flagged for a closer look

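In each group the line farthest from the others was examined for the 8 members in CPM and for the summed TPM and the Mapk13 and Mapk14 shares of the p38 genes, 22 group values in all. Chance flags about 1 in 20 such groups, and 5 were flagged. The group values are not independent, since the p38 sum and shares are computed from genes that were also examined singly. The flags therefore cannot be counted as separate events against that rate. Knockout replicate 6 held 107 CPM of Mapk14, against 73.3 to 87.0 CPM in the other knockout lines. In knockout replicate 2 Mapk13 made up 20.1% of the summed p38 TPM, against 52.6% to 71.6% in the other knockout lines. The other flags were all in WT replicate 3. It held 79.0 CPM of Mapk13, against 130 to 159 CPM in the other WT lines, and a p38 sum of 172 TPM, against 282 to 337 TPM. Mapk14 made up 32.9% of that sum, against 18.2% to 20.7% in the other WT lines.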

How the results depend on the processing

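No member was called higher under any alternative run, and Mapk4 was called lower in all of them, with log2 fold changes from -4.84 to -4.39 with 1 line left out and from -4.99 to -1.38 elsewhere, the smallest on log2(TPM + 1). Mapk14 kept its direction but not its call with no filter (-0.41), at a threshold of 0.01 (-0.40), without knockout replicate 2 and WT replicate 3 together (-0.37) and with WT replicates 4 and 5 summed (-0.40), which left 1 member called lower in each. With 1 line left out it ranged from -0.47 to -0.37, and 1 or 2 members were called lower. The uncalled differences near 0 turned sign. Mapk3 was -0.17 on both TPM scales, -0.0070 with WT replicates 4 and 5 summed and -0.068 to 0.21 with 1 line left out. Mapk6 was 0.044 with limma-voom, 0.041 with the summed sample, and -0.22 to 0.15 with 1 line left out. Mapk7 was -0.066 with voom sample weights, -0.011 on log2(TPM + 1) and -0.0091 on log2(TPM + 0.1). Mapk12 was -0.18 with sample weights and -0.051 to 0.40 with 1 line left out, and Map2k4 was -0.034 on log2(TPM + 1) and -0.035 on log2(TPM + 0.1). The TPM scales shift the median of all genes by -0.19 and -0.23; the cause of the other turns was not tested. Over all genes 1359 were higher and 1095 lower with DESeq2, 1410 and 1399 with sample weights, 286 and 998 on log2(TPM + 1), 322 and 981 on log2(TPM + 0.1), 96 and 116 at 0.01, and 324 to 649 and 316 to 592 with 1 line left out. Of the phosphatases 2 were lower in the edgeR test, 4 with DESeq2 (1 higher), 5 with sample weights and 3 on both TPM scales. No paired analysis was possible because the labels give the lines no shared replicate numbers. Transcript counts do not measure kinase protein or phosphorylation.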

Other observations

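One MAP kinase outside the members stood out after its values were seen. Mapk15, which encodes the atypical kinase ERK7, had too few reads for the main test. It had 31, 6, 30, 4, 7, 4 and 10 reads in knockout replicates 1 to 7, against 1, 0, 0, 1, 1 and 0 reads in WT replicates 1 to 6. All 7 knockout lines lay above every WT line in CPM, as for 2.08% of the genes in the main test. The summed reads were 92 in knockout and 3 in WT lines, a depth-scaled ratio of 27.6 with a 95% interval from 9.16 to 136 that covers counting error only. With no filter on low counts edgeR called it (log2 fold change 4.50, adjusted p = 0.014). Its level stayed at or under 0.70 TPM in every line. Nlk, the gene of Nemo-like kinase, had a log2 fold change of 0.44 (SE 0.17) that did not pass in edgeR's test (adjusted p = 0.12), with 5 of 7 knockout lines above every WT line.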
